A study of Mus musculus with 20 samples.

Results

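The expression of 29 protein-coding Hox genes, 10 in the HoxA cluster on chromosome 6, 10 in the HoxB cluster on chromosome 11 and 9 in the HoxD cluster on chromosome 2, was measured in 20 RNA-seq libraries of mouse embryoid body (EB) cultures. The genes were taken by name, out of 55573 genes in the table, and not by a cut on their values, but earlier results of these data were known. EBs are floating clumps of pluripotent cells that begin to form tissues of the early embryo. The cultures came from 4 induced pluripotent stem cell (iPSC) lines, and each line gave 1 library on each of days 0, 3, 5, 7 and 14. WT#1-4 and WT#20D-17 are wild type lines, and Nox4-/- #5-8 and Nox4-/- #5-23 are lines without Nox4, an NADPH oxidase that generates reactive oxygen species. By the study's methods, iPSCs were made from embryonic fibroblasts with retroviruses for Oct4, Sox2, Klf4 and c-Myc, lines were single picked colonies, and cells were kept with LIF on fibroblast feeders. EBs were then formed in hanging drops without LIF and plated on gelatin after 3 days. WT#20D-17 is a line that the labels give and the study's text does not name. The sample titles give day 14 as the last day, while the protocol in the labels lists day 10, and the titles were followed. Each genotype is therefore represented by 2 clones, and the days of a line are not replicates of its genotype.

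Hox genes encode homeodomain transcription factors that give embryonic cells their position along the body axis. Within each cluster the genes lie in the order in which they act from head to tail: genes of low number are activated first and act anteriorly in hindbrain and neck, and genes of high number are activated last and act in the trunk, tail and distal limb. In pluripotent cells the clusters are held silent by Polycomb proteins. During differentiation, Wnt, FGF and retinoic acid signals and the Cdx factors open them step by step, and cultured fibroblasts keep the Hox code of the body region from which they were taken.

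Total counts per library were between 20294968 and 27708023. Levels are given as CPM (counts scaled to a common library size) after TMM scaling, and 3 counts, at most 0.148 CPM before scaling, were taken as the floor. Nox4 was at 3 to 22 counts in WT#1-4, at 56 to 203 counts in WT#20D-17 and at 0 to 2 counts in the 10 Nox4-/- libraries. Of 12 pluripotency markers, all were above 3 counts in WT#20D-17 on day 0, among them Nanog (383 CPM), Zfp42 (41.6 CPM) and Esrrb (123 CPM). That library also held 802 CPM of extraembryonic endoderm markers, Cubn among them with 515 CPM, and 142 CPM of lateral mesoderm markers, so markers of other cell types were present on day 0. The other 3 lines had a split pattern on every day. Zfp42 was at 0 and Nanog never passed 1.03 CPM in their 15 libraries, while Pou5f1, which the Oct4 virus also encodes, was between 1278 and 5760 CPM and Fgf4 between 58.4 and 192 CPM. Against WT#1-4, 10 of the 12 markers were called higher in WT#20D-17 (9.96% of all genes) and 1, Pou5f1, lower (7.78%). The summed CPM of the list on day 0 was 5915 in WT#1-4 and 4340 in WT#20D-17. In bulk samples fewer cells of a type and less RNA per cell cannot be told apart.

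The RefSeq table held 250 bases upstream of the start (GRCm38.p6) for 21 of the 29 genes, in 23 promoters. Shown here are promoters of the genes on which the results below turn. Hoxa7 and Hoxa10 were the HoxA genes with the highest mean levels per kb of merged exon, and Hoxa11 lay beyond the edge of the HoxA profile. Hoxb4 was the HoxB gene with the highest mean level. Hoxd4 and Hoxd8 separated the lines, and Hoxd13 fell with time in 3 lines. Each promoter is on its gene's strand. Capitals mark TTTATG, the core of a Cdx site, or TGATNNAT, a paired Hox and Pbx site, on either strand, or the TATA box letters TATAAA on the gene's strand. None of these motifs overlaps another in the member promoters. Hoxa10 has 2 promoters in the table, and the one nearer to Hoxa9 is shown.
Hoxa7, chr6:52218574-52218823, minus strand: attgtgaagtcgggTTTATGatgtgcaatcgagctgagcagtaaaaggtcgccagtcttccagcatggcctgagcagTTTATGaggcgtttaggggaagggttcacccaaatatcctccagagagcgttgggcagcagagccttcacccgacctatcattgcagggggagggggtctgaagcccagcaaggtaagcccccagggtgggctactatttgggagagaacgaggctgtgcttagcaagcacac
Hoxa10, chr6:52234940-52235189, minus strand: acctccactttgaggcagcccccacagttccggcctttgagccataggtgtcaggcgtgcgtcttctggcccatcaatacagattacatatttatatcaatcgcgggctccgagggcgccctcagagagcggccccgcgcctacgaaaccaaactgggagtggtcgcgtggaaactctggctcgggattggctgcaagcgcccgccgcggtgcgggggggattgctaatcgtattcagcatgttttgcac
Hoxa11, chr6:52245811-52246060, minus strand: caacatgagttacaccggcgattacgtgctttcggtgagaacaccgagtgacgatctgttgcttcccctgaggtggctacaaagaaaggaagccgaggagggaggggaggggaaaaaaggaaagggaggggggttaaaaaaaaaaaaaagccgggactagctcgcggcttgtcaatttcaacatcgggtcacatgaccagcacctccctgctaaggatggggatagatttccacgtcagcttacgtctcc
Hoxb4, chr11:96318017-96318266, plus strand: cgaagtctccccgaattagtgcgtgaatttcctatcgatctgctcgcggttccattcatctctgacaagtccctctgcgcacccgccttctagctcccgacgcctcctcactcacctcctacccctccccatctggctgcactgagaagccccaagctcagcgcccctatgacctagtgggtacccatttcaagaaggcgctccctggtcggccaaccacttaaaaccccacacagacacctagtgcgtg
Hoxd4, chr2:74721728-74721977, plus strand: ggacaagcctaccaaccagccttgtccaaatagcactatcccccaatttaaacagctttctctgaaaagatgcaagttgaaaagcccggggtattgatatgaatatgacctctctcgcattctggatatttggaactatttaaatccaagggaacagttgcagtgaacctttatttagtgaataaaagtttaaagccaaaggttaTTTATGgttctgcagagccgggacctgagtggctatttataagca
Hoxd8, chr2:74704365-74704614, plus strand: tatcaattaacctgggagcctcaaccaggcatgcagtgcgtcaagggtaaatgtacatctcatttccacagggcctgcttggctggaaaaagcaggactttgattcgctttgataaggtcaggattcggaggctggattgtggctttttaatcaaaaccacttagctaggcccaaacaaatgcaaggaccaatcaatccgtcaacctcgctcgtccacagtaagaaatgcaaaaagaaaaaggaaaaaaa
Hoxd13, chr2:74667975-74668224, plus strand: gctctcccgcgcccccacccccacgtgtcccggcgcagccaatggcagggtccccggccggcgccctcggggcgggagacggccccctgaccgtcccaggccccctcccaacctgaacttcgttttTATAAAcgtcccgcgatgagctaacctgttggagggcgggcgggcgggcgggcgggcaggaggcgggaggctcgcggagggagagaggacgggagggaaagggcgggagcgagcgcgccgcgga
Among these stretches, Hoxa7 held TTTATG at 2 places, Hoxd4 at 1, and Hoxd13 held TATAAA. Hoxa10, Hoxa11, Hoxb4 and Hoxd8 held none of the 3 motifs in this window. TTTATG was found in 5 of the 23 member promoters (Hoxa7, Hoxb8, Hoxd3, Hoxd4 and 1 of 2 for Hoxd11) and in 10.8% of 32851 promoters. TGATNNAT was found in 4 (Hoxa2, Hoxb1, Hoxb8 and the other Hoxd11 promoter), against 7.68% of all promoters, and TATAAA in 1 (Hoxd13), against 7.59%. CpG dinucleotides were more frequent in member promoters, with a median of 13 in 250 bases, than over all promoters, with a median of 6, but the Hoxd4 and Hoxa9 stretches held only 3 each.

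The 4 lines had different Hox profiles already at the level of whole clusters. HoxA genes together made up 37.3 ± 12.3 CPM (SD over 5 days) in WT#1-4, 34.6 ± 5.55 CPM in Nox4-/- #5-8 and 74.8 ± 10.2 CPM in Nox4-/- #5-23, but 7.72 ± 4.52 CPM in WT#20D-17. HoxB genes summed to 1.88 ± 0.488 CPM in WT#1-4, 4.97 ± 1.67 CPM in Nox4-/- #5-8, 6.37 ± 1.04 CPM in Nox4-/- #5-23 and 10.2 ± 7.67 CPM in WT#20D-17. HoxD genes summed to 29.5 ± 2.93 CPM in Nox4-/- #5-23, 5.78 ± 2.91 CPM in WT#1-4, 4.54 ± 3.58 CPM in WT#20D-17 and 1.28 ± 0.590 CPM in Nox4-/- #5-8. The HoxA sum was lower in every library of WT#20D-17 than in any library of the other lines, and the HoxD sum was higher in every library of Nox4-/- #5-23 than in any other library. Over the 29 genes, mean levels per kb of exon were ranked alike in WT#1-4 and both Nox4-/- lines (Spearman's rho 0.85 to 0.88 for the 3 pairs) and less alike between WT#20D-17 and any of them (0.28 to 0.33). These coefficients are across genes of shared libraries and only describe the profiles.

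**Figure D1:**
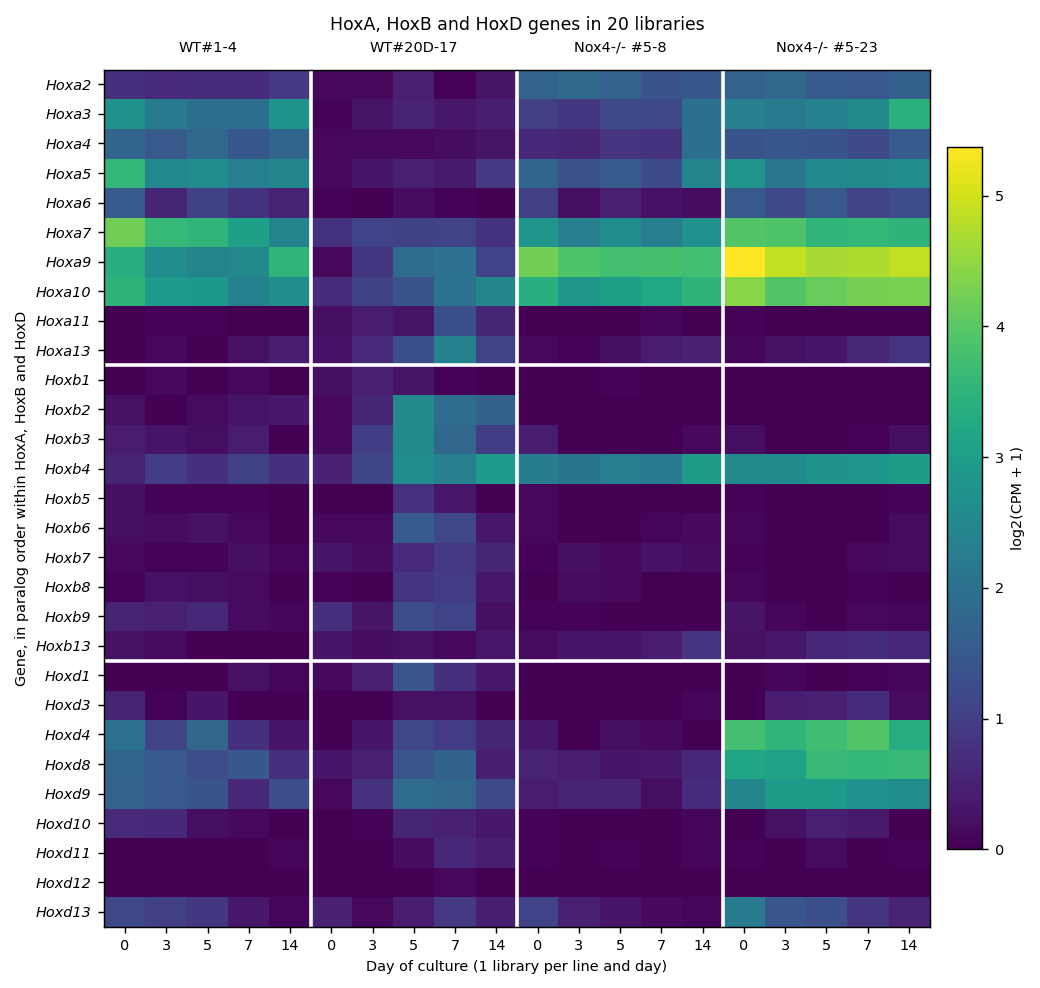
Level of each gene (rows, in paralog order within each cluster) in each library (columns, by line and day) as log2(CPM + 1). WT#1-4 and both Nox4-/- lines hold a block of Hoxa2 to Hoxa10 on every day, with little at Hoxa11 and Hoxa13. WT#20D-17 is dark on day 0, and of its 27 genes that passed 3 counts 11 are highest on day 5 and 10 on day 7.

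In WT#20D-17 the summed level of each cluster was lowest on day 0 and had risen by day 5. On day 0, 11 of the 29 genes were above 3 counts. On day 0 all 29 genes together gave 4.96 CPM, and on day 5 they gave 37.7 CPM. For 19 of the 29 genes the 95% Wilson interval of a later day lay above that of day 0, where 27.5% of 33860 genes did so in this line, and for 0 of the 29 a later day lay below (24.2%). In the other lines a later day lay above day 0 for 1 gene in WT#1-4 (26.3% of all genes), 5 in Nox4-/- #5-8 (25.1%) and 7 in Nox4-/- #5-23 (23.0%). A later day lay below day 0 for 12 genes in WT#1-4, 6 in Nox4-/- #5-8 and 6 in Nox4-/- #5-23, with backgrounds of 23.8%, 23.0% and 20.8%. These intervals cover counting error in single libraries only.

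**Figure D2:**
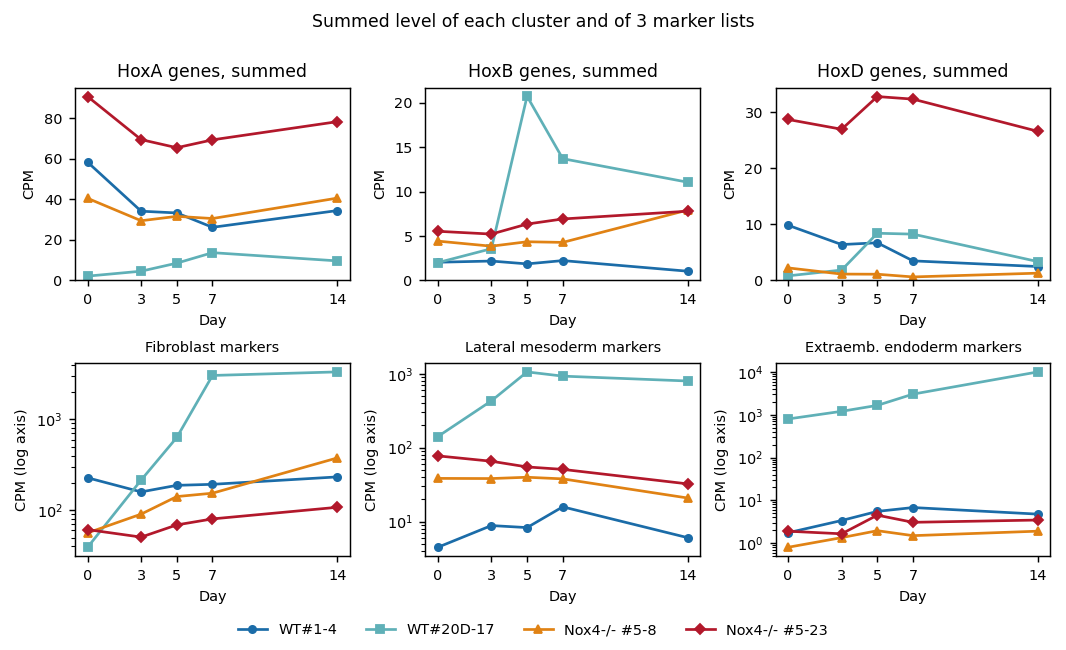
Summed CPM of each cluster (upper row, linear axis) and of 3 marker lists (lower row, log axis) by day, with 1 line and symbol per iPSC line and 1 library per point. HoxB genes peak on day 5 in WT#20D-17 at 20.8 CPM, and the lateral mesoderm and extraembryonic endoderm markers are highest in that line on every day.

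The day of the highest level in WT#20D-17 differed between genes, and the order of genes in time was not tested. Hoxb1, the most 3′ HoxB gene and a marker of the fourth hindbrain segment, was highest on day 3, at 0.388 CPM, 9 counts. Hoxb2, which acts in hindbrain segments beside Hoxb1, was at 0.0820, 0.474, 4.79, 2.80 and 2.15 CPM on days 0, 3, 5, 7 and 14. Hoxb3 was at 0.0820, 0.991, 4.88, 2.40 and 0.997 CPM on the same days. Both genes were thus highest on day 5 and had dropped below that level by day 14. Hoxd1, an early HoxD gene, gave 0.0820, 0.388, 1.66, 0.666 and 0.262 CPM. Of the 27 genes that passed 3 counts in this line, 1 was highest on day 3, 11 on day 5, 10 on day 7 and 5 on day 14.

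Several genes of high number were highest on day 7 in this line. Hoxa11, required for the forearm, was at 0.164, 0.344, 0.218, 1.47 and 0.472 CPM, and Hoxa13, required for digits and hindgut, at 0.205, 0.560, 1.48, 4.13 and 1.16 CPM. Hoxd11 passed the floor on days 7 and 14 only, at 0.533 and 0.367 CPM. Among the middle HoxB genes, Hoxb5, Hoxb6 and Hoxb9 were highest on day 5, at 0.697, 1.92 and 1.40 CPM, and Hoxb7 and Hoxb8 on day 7, at 0.843 and 0.932 CPM. Other genes did not follow their number, since Hoxd9 and Hoxd10 were highest on day 5 (2.70 and 0.479 CPM) and Hoxa4, Hoxa5 and Hoxb4 on day 14 (0.210, 0.892 and 6.51 CPM). Hoxa11, Hoxa13 and Hoxd11 were each highest on day 7, and Hoxa11 and Hoxd11 never passed 3 counts in the other 3 lines. Hoxd12 had at most 2 counts in any library, so its expression was not detectable at this depth. Hoxa2, Hoxa3, Hoxa4, Hoxa5 and Hoxa6, by contrast, stayed below 1 CPM on every day in WT#20D-17, although they lie nearer to the 3′ end than Hoxa9, which reached 3.02 CPM on day 7, and Hoxa10, which reached 4.51 CPM on day 14.

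**Figure D3:**
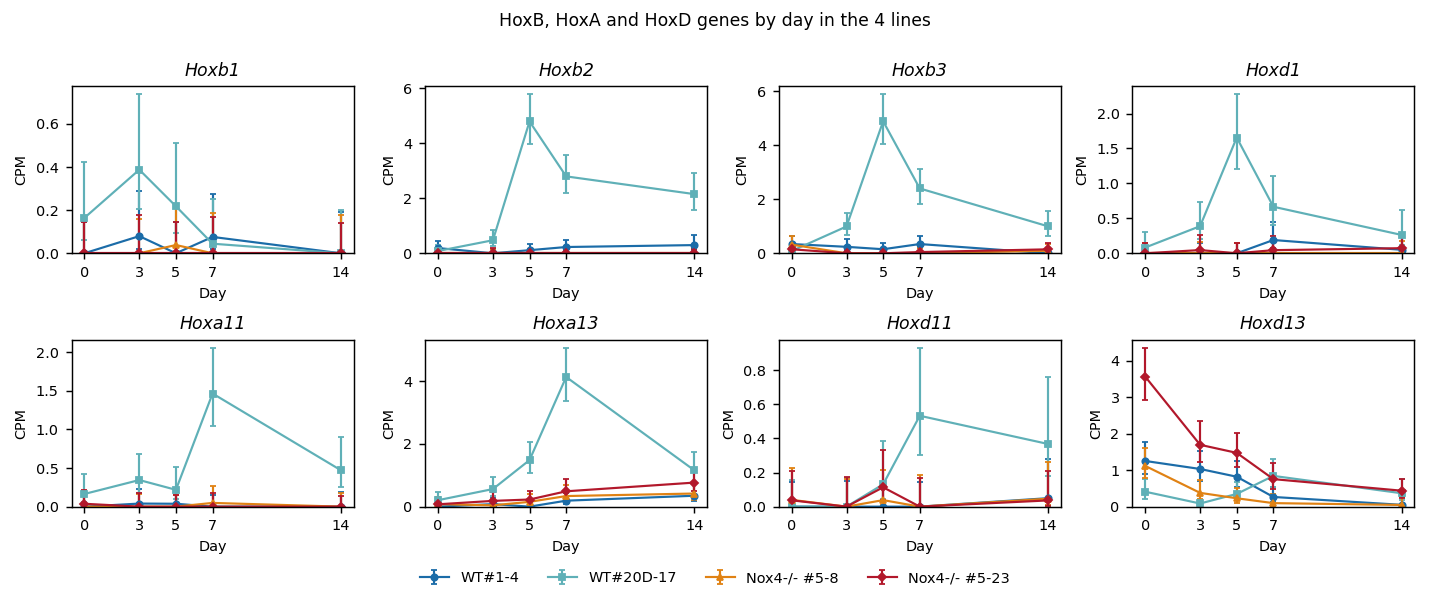
CPM by day (linear axes from 0) for 4 anterior genes (upper row) and 4 posterior genes (lower row), with 1 library per point and 95% Wilson intervals as bars. In WT#20D-17 Hoxb2, Hoxb3 and Hoxd1 are highest on day 5 and Hoxa11, Hoxa13 and Hoxd11 on day 7, while Hoxd13 is highest on day 0 in the other 3 lines.

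Genes of Hox regulation were compared between the wild type lines. Cdx2, which opens the posterior part of the clusters in the tail bud, was at 0.123 CPM on day 0 and 18.2 CPM on day 5 in WT#20D-17, and at 0.693 CPM or less in every library of the other lines. Cyp26a1, an enzyme that degrades retinoic acid and is induced by it, was at 42.5 to 245 CPM in WT#20D-17 and at most 2.57 CPM elsewhere. Of 22 such genes (Cdx factors, retinoic acid receptors and enzymes, Fgf8, Wnt3a and others), 7 were called higher and 0 lower in WT#20D-17 than in WT#1-4. Of all 33860 genes, 9.96% were called higher and 7.78% lower. The median log2 fold of the list was 2.18 as fitted, and 2.08 over 21 genes with those at the floor set at their bound, against 0 for all genes. Summed over the list, WT#20D-17 had 526, 625, 458, 427 and 269 CPM on the 5 days. These calls compare lines, not days. In the same comparison 9 of 9 lateral mesoderm markers and 10 of 10 extraembryonic endoderm markers were called higher (9.96% of all genes). Fibroblast markers in WT#20D-17 went from 39.1 CPM in sum to 3325 CPM over the days. The part of such cells in the Hox levels was not tested.

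Across all 4 lines, Hoxa13 was the only one of 18 members tested that changed over the days at an FDR under 0.01 (edgeR's quasi-likelihood test with line as a term), where 18.0% of 17827 genes passed. Its level on day 14 was above that on day 0 in 4 of 4 lines, with a log2 fold of 3.26 (SE 0.71, FDR = 0.0044). In WT#1-4 it was at 0, 0.0795, 0, 0.190 and 0.347 CPM over the 5 days. In Nox4-/- #5-8 it was at 0.0798, 0.0420, 0.153, 0.337 and 0.417 CPM. In Nox4-/- #5-23 it was at 0.0743, 0.183, 0.227, 0.488 and 0.766 CPM. Levels were thus under 1 CPM on every day in these 3 lines, and the call was lost without WT#1-4, Nox4-/- #5-8 or Nox4-/- #5-23 (FDR = 0.014, 0.039 and 0.075) and without WT#20D-17 the gene did not pass the filter on low counts and was not tested. The median log2 fold of day 14 over day 0 was 0.24 for the 18 members and 0.04 for all genes tested.

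When day 14 alone was set against day 0, 2 of the 18 members were called, where 28.8% of genes were. Hoxa13 was higher (FDR = 0.0016), and Hoxd13, the most 5′ HoxD gene and a digit gene, was lower, with a log2 fold of -2.79 (SE 0.76, FDR = 0.0077). Hoxd13 was at 1.25, 1.03, 0.820, 0.265 and 0.0496 CPM in WT#1-4. It was at 1.12, 0.378, 0.229, 0.0963 and 0.0464 CPM in Nox4-/- #5-8, and at 3.57, 1.70, 1.48, 0.755 and 0.438 CPM in Nox4-/- #5-23. In each of these 3 lines day 0 was highest and day 14 lowest. WT#20D-17 had no such course, with 0.410, 0.0861, 0.349, 0.843 and 0.367 CPM. Without WT#20D-17 the log2 fold was -3.61 (SE 0.51, FDR = 9.9e-05, where 34.3% of genes were called), and without any other line the call was lost (edgeR FDR = 0.052 to 0.077). Over the whole day course without WT#20D-17, Hoxd13 was the only member called (FDR = 0.00063, where 23.4% of genes were called). Fibroblast markers were also fitted without WT#20D-17. On day 14 against day 0, of 13 tested, S100a4 was called higher (log2 fold 3.21, SE 0.36, edgeR FDR = 1.9e-05). Pdgfrb was called lower (log2 fold -4.08, SE 0.71, edgeR FDR = 0.00045), and Col3a1 was called over the day course alone (edgeR FDR = 0.0071). Pdgfrb, a receptor of mesenchymal cells, had 199 counts on day 0 and 19 on day 14 in WT#1-4. The Nox4-/- lines #5-8 and #5-23 had 46 and 63 counts of it on day 0 and 1 each on day 14. Of the 13 markers, 5 were lower on day 14 than on day 0 in all 3 lines. The list as a whole did not fall in these lines. On day 0 its 15 genes summed to 227.5 CPM (WT#1-4), 56.3 CPM (Nox4-/- #5-8) and 61.2 CPM (Nox4-/- #5-23). The day 14 sums, with the lines in that order, were 232.7, 376.5 and 107.8 CPM. The part of fibroblast markers in the fall of Hoxd13 was not tested.

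In WT#1-4 and the Nox4-/- lines the HoxA cluster showed a persistent profile with an edge between Hoxa10 (chr6:52231197-52240854) and Hoxa11 (chr6:52242106-52245810). Hoxa10, a thoracolumbar gene of the Abdominal-B group, was at 10.3, 6.51, 6.30, 4.17 and 5.30 CPM in WT#1-4. It was at 9.50, 6.17, 7.15, 8.14 and 10.2 CPM in Nox4-/- #5-8 and at 20.3, 14.2, 16.4, 18.3 and 18.5 CPM in Nox4-/- #5-23. Hoxa11, the next gene, never passed 3 counts in these 15 libraries, 0.0482 CPM at most. In WT#20D-17 Hoxa10 was at 0.615, 1.08, 1.61, 3.15 and 4.51 CPM, and there Hoxa11 and Hoxa13 were both detected, so the edge was absent. The highest mean levels per kb of exon were those of Hoxa7 in WT#1-4 (3.53 ± 1.72 CPM per kb, SD over 5 days), Hoxa10 in both Nox4-/- lines (2.52 ± 0.506 and 5.37 ± 0.703) and Hoxb4 in WT#20D-17 (1.36 ± 1.03). In WT#1-4 Hoxa5 (3.10) followed Hoxa7 within the spread over days, and in both Nox4-/- lines Hoxa9 (2.50 and 5.28) followed Hoxa10 within it. These ranks depend on the length used. Merged exons span 5580 bases for Hoxa9 and 3270 for Hoxa10, and their longest transcripts 3226 and 2565. Without division by length, Hoxa9 had the higher mean in Nox4-/- #5-8 (13.9 against 8.23 CPM) and in Nox4-/- #5-23 (29.5 against 17.6 CPM).

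Anterior and middle HoxA genes differed between the wild type lines. Hoxa7, a thoracic gene, was at 17.6, 11.2, 10.4, 7.17 and 4.36 CPM in WT#1-4 and at 0.738, 1.12, 1.09, 1.15 and 0.735 CPM in WT#20D-17. It was at 5.95, 3.94, 5.08, 3.90 and 5.61 CPM in Nox4-/- #5-8 and at 14.2, 13.9, 10.4, 10.9 and 10.3 CPM in Nox4-/- #5-23. The wild type lines did not overlap, and WT#1-4 lay within the range of the Nox4-/- lines or above it. Hoxa2 to Hoxa7, 6 genes, were called lower in WT#20D-17 than in WT#1-4 (edgeR's exact test, where 17.7% of 33860 genes were called and 7.78% were lower), with log2 folds from -1.99 for Hoxa2 to -4.24 for Hoxa6. Hoxa11, Hoxa13, Hoxb2, Hoxb3 and Hoxb7, 5 genes, were called higher (9.96% of all genes). Hoxa6 was at or under 3 counts in every WT#20D-17 library, so its mean was at least 6.75-fold higher in WT#1-4, against a floor of 3 counts per library. Every library of WT#20D-17 lay below every library of WT#1-4 for 7 genes, Hoxa2 to Hoxa7 and Hoxa9 (7.75% of all genes), and above for 1, Hoxa11 (9.27%). The median log2 fold of the members was 1.16 as fitted and 0.15 over 28 genes with those at the floor set at their bound, against 0 for all genes. With day as a replicate block in a quasi-likelihood test 7 of these 11 calls were made (13.1% of genes), and Hoxa2 (FDR = 0.027), Hoxb2 (0.029), Hoxb3 (0.089) and Hoxb7 (0.023) were not.

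Pooled over the days, 5 of 29 genes differed between the Nox4-/- lines and WT#1-4 (edgeR's exact test, FDR under 0.01), where 5.62% of 33860 genes did. Hoxa2, Hoxa9, Hoxb4 and Hoxb13 were higher, where 1.65% of genes were, and Hoxb2 was lower (3.97%). With day as a replicate block 4 were called, Hoxb13 no longer among them (8.04% of genes). The median log2 fold of the members was -0.05, and 0.20 over the 21 genes with a fold when a gene at the floor in 1 group was set at its bound, against 0 for all genes. The days of a clone stand in for replicates in this test. Hoxa2, Hoxa9 and Hoxb4 were also the 3 members that were higher in every Nox4-/- library than in any WT#1-4 library, which held for 1.28% of all genes, and 0 members were lower in every library (2.07%).

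Hoxa2, which sets the identity of the second pharyngeal arch, was at 0.646, 0.556, 0.597, 0.607 and 0.843 CPM in WT#1-4. It was at 2.28, 2.64, 2.22, 1.59 and 1.81 CPM in Nox4-/- #5-8 and at 2.23, 2.52, 1.89, 1.82 and 2.11 CPM in Nox4-/- #5-23. The Nox4-/- lines overlapped each other and both lay above WT#1-4, with a log2 fold of 1.70 (SE 0.29, FDR = 8.9e-07). WT#20D-17 was lower still, at 0.0820, 0.0861, 0.392, 0.0444 and 0.210 CPM, so both Nox4-/- lines lay above both wild type lines. With the line as the unit, Hoxa2 was not called (log2 fold 2.42, SE 0.90, FDR = 0.60 in edgeR's quasi-likelihood test).

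Hoxa9, a trunk gene that also sustains blood progenitors, was at 9.19, 5.24, 4.40, 4.78 and 10.4 CPM in WT#1-4. In Nox4-/- #5-8 it was at 17.9, 13.8, 12.7, 13.1 and 12.3 CPM and in Nox4-/- #5-23 at 40.4, 28.6, 24.3, 25.4 and 28.6 CPM. The 3 lines did not overlap. WT#20D-17 again had the lowest levels, at 0.0820, 0.818, 2.70, 3.02 and 1.10 CPM. The pooled log2 fold over WT#1-4 was 1.68 (SE 0.33, FDR = 0.00011). It was 2.14 (SE 0.29) for Nox4-/- #5-23 and 1.03 for Nox4-/- #5-8, which by itself did not pass the threshold (FDR = 0.038).

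Hoxb4, known for its effect on blood stem cells, was the only HoxB gene above 1 CPM in either Nox4-/- line. It was at 0.456, 0.953, 0.671, 1.10 and 0.644 CPM in WT#1-4. It was at 3.75, 3.27, 3.94, 3.71 and 6.86 CPM in Nox4-/- #5-8 and at 4.76, 4.90, 5.82, 6.04 and 6.78 CPM in Nox4-/- #5-23. Its neighbours were near the floor in both: Hoxb5, Hoxb6 and Hoxb8 stayed at or under 3 counts, and Hoxb2 was at 0 in all 10 libraries. Hoxb3, next to it on the 3′ side, had at most 8 counts in Nox4-/- #5-8 and 4 in Nox4-/- #5-23. Hoxb7 reached 4 counts in Nox4-/- #5-8, and Hoxb9 reached 6 in Nox4-/- #5-23. The log2 fold of Hoxb4 over WT#1-4 was 2.69 (SE 0.33, FDR = 7.6e-12). WT#20D-17 crossed the range, at 0.410, 1.16, 5.36, 4.04 and 6.51 CPM, and with that line as the wild type the log2 fold was 0.51 (FDR = 0.52), and with both wild type lines it was 1.23 (FDR = 0.064).

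The other calls rested on few counts. Hoxb2 had 5, 0, 3, 6 and 6 counts in WT#1-4 and 0 in every Nox4-/- library, so the call (FDR = 5.6e-05) is of a gene at the edge of detection, at most 0.297 CPM in WT#1-4. In the quasi-likelihood test without a block its FDR was 0.011, and in DESeq2 it was 0.019. Hoxb13, a tail bud and prostate gene, had 5, 3, 0, 0 and 0 counts in WT#1-4 and 3, 6, 6, 7 and 16 counts in Nox4-/- #5-8 and 5, 6, 14, 14 and 15 in Nox4-/- #5-23. Its log2 fold was 2.50 (SE 0.75, FDR = 0.0080), the groups overlapped, and the call was lost with day as a replicate block (FDR = 0.028). It was also lost with either Nox4-/- line left out and in 4 of the 5 fits that left out a single day (FDR = 0.024 to 0.14).

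**Figure D4:**
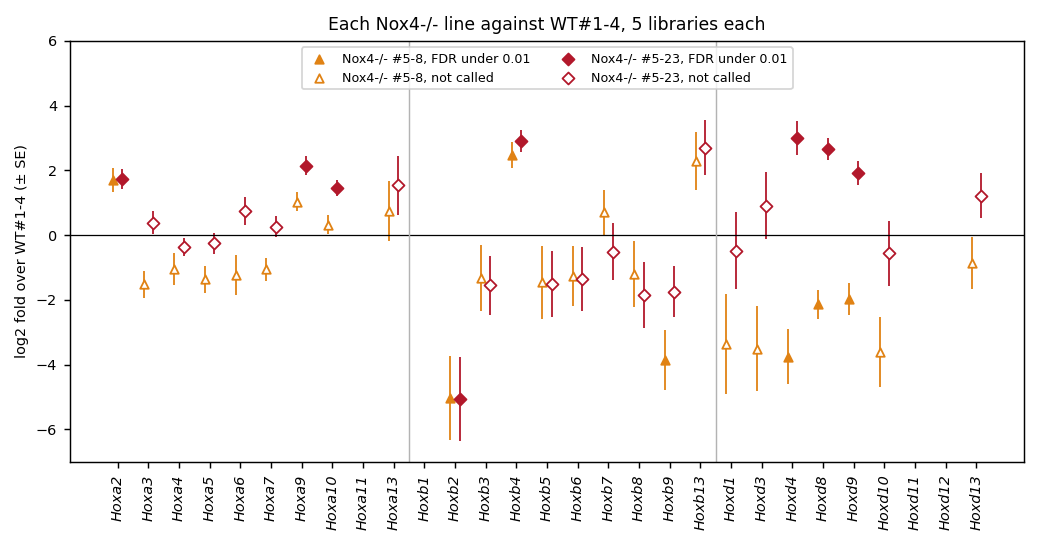
Log2 fold (± SE) of each gene in Nox4-/- #5-8 (triangles) and Nox4-/- #5-23 (diamonds) over WT#1-4, with filled symbols for an FDR under 0.01; genes at or under 3 counts in both groups are left out, and folds of genes at 0 in 1 group depend on the prior count. Hoxa2, Hoxb4 and Hoxb2 have the same sign in both lines, while Hoxd4, Hoxd8 and Hoxd9 lie on opposite sides of 0.

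Hoxd4, Hoxd8 and Hoxd9, 3 of the 9 HoxD genes, differed from WT#1-4 in opposite directions in the Nox4-/- lines. By edgeR's exact test against WT#1-4, 7 of 29 genes were called in Nox4-/- #5-8 (4.42% of all genes) and 8 in Nox4-/- #5-23 (5.89%), and the other 6 HoxD genes were called in neither. Hoxd4, a neck vertebra and hindbrain gene, was at 12.7, 10.4, 12.2, 14.1 and 9.22 CPM in Nox4-/- #5-23 and at 0.280, 0, 0.153, 0.0963 and 0 CPM in Nox4-/- #5-8. It was at 3.00, 1.15, 2.42, 0.683 and 0.248 CPM in WT#1-4 and at 0, 0.258, 1.22, 0.932 and 0.472 CPM in WT#20D-17. Every Nox4-/- #5-23 library was above every other library. Against WT#1-4, its log2 fold was 2.99 (SE 0.52, FDR = 5.1e-06) in Nox4-/- #5-23 and -3.75 (SE 0.85, FDR = 0.0010) in Nox4-/- #5-8. The Nox4-/- lines themselves differed by a log2 fold of 6.68 (SE 0.62, FDR = 1.1e-34).

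Hoxd8, a thoracic gene, had the same pattern. It was at 7.88, 7.56, 11.5, 10.9 and 11.5 CPM in Nox4-/- #5-23, at 2.32, 1.83, 1.42, 1.74 and 0.644 CPM in WT#1-4 and at 0.439, 0.336, 0.229, 0.289 and 0.510 CPM in Nox4-/- #5-8. In WT#20D-17 it was at 0.246, 0.388, 1.70, 2.17 and 0.367 CPM. These 3 ranges of WT#1-4 and the Nox4-/- lines did not overlap, and the log2 fold over WT#1-4 was 2.65 (SE 0.35) in Nox4-/- #5-23 and -2.14 (SE 0.46) in Nox4-/- #5-8. Hoxd9, a limb and lumbar gene, ranged from 4.50 to 6.69 CPM in Nox4-/- #5-23, from 0.531 to 2.24 CPM in WT#1-4, from 0.0820 to 2.70 CPM in WT#20D-17 and from 0.144 to 0.603 CPM in Nox4-/- #5-8, with log2 folds of 1.92 (SE 0.37) and -1.97 (SE 0.50). In the pooled comparison, where both Nox4-/- lines enter together, 0 of the 9 HoxD genes were called. Hoxd10 to Hoxd12, the next genes on the 5′ side, were at or below 0.378 CPM in Nox4-/- #5-23, while Hoxd13 beyond them was detected on each day.

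**Figure D5:**
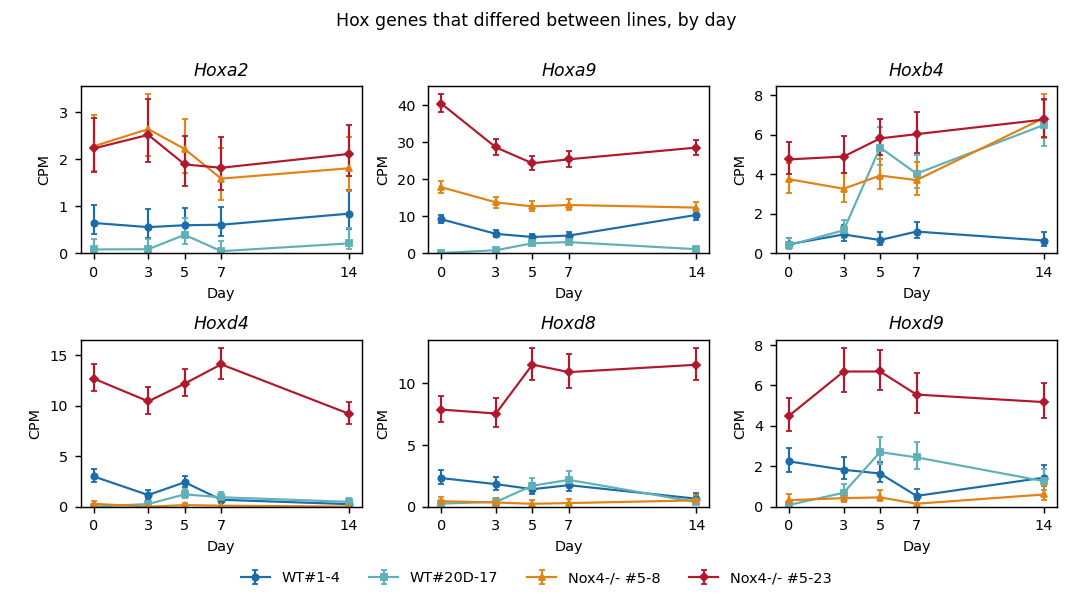
CPM by day (linear axes from 0) for Hoxa2, Hoxa9, Hoxb4, Hoxd4, Hoxd8 and Hoxd9, with 1 symbol per line, 1 library per point and 95% Wilson intervals as bars. Both Nox4-/- lines lie above WT#1-4 for the first 3 genes, and for the HoxD genes only Nox4-/- #5-23 does.

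Between the Nox4-/- lines 7 of 29 genes were called (2.19% of all genes), all higher in Nox4-/- #5-23 (1.05% of all genes were called higher): Hoxa3, Hoxa7, Hoxa9, Hoxa10, Hoxd4, Hoxd8 and Hoxd9. The 4 HoxA genes differed by log2 folds of 1.08 to 1.87, and the 3 HoxD genes by 3.86 to 6.68. With day as a replicate block 10 genes were called, with Hoxa5, Hoxa6 and Hoxd13 in addition (6.31% of genes). Every Nox4-/- #5-23 library was above every Nox4-/- #5-8 library for 8 members, the same 7 and Hoxa6 (2.40% of genes), and below for 0 (2.16%). Leaving out day 3, day 5 or day 7 left only Hoxd4, Hoxd8 and Hoxd9 past the threshold. Median log2 folds were 0.77 for the members, or 1.08 for the 19 with a fold when genes at the floor were set at their bound, and 0 for all genes. Hoxd4 (chr2:74711929-74729160) overlaps Gm28230, another annotated gene, so reads could be split between them, and RSEM gave 1.86 to 5.52 CPM in Nox4-/- #5-23 and at most 0.0839 CPM in Nox4-/- #5-8. The sum of both was 11.1 to 17.7 CPM against 0 to 0.359 CPM. Hoxd4 also overlaps Hoxd3 on the same strand. Hoxa3 overlaps Hoxa4, Hoxa5 and Hoxa6 on the same strand and had decimals in 18 of 20 values. In all, 17 of the 29 members overlap another annotated gene.

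When genotype was tested with the line as the unit, 2 wild type against 2 Nox4-/- lines, 0 of 23 members and 0 of 20229 genes (0%) passed the FDR of 0.01 in edgeR's quasi-likelihood test, with 5 members and 1628 genes at an unadjusted p under 0.05. DESeq2 called 730 genes in the same design, Hoxb2 among them as the only member. The interaction of genotype and day called 0 of 25 members and 2 of 19240 genes (0.0104%), with 0 members and 1391 genes at an unadjusted p under 0.05, and DESeq2 called 191 genes and 0 members. With WT#1-4 left out, 666 genes were called in the interaction, and Hoxa9 was among them as the only member. With WT#20D-17 as the wild type in the pooled test, 18 members were called (25.8% of all genes): Hoxa2 to Hoxa7, Hoxa9 and Hoxa10 were higher in Nox4-/- lines (9.83%), and Hoxa11, Hoxa13, Hoxb1, Hoxb2, Hoxb3, Hoxb6, Hoxb7, Hoxb8, Hoxb9 and Hoxd1 were lower (16.0%). Every Nox4-/- library was above every WT#20D-17 library for those 8 higher genes (6.33% of genes) and below for Hoxa11, Hoxb2 and Hoxd1 (8.99%). With both wild type lines together 10 members were called (12.1%). The calls shared by both choices of wild type line were Hoxa2, Hoxa9 and Hoxb2. Both choices share the Nox4-/- libraries.

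Genes around and above the clusters were followed from lists. The HoxC genes, in a cluster not described further here, gave 1.06 to 3.22 CPM in sum in WT#1-4, 1.56 to 23.6 CPM in WT#20D-17, 68.9 to 113 CPM in Nox4-/- #5-8 and 100.5 to 126 CPM in Nox4-/- #5-23. Of the HoxC genes, 9 of 9 were called higher in Nox4-/- than in WT#1-4 (1.65% of all genes). Of 18 flanking genes tested in the pooled comparison 0 were called higher and 1 lower (3.97% of all genes), Skap1 beside HoxB, with a median log2 fold of 0.09. Evx1, next to Hoxa13, was at 0.369, 19.4, 15.6, 12.2 and 1.57 CPM in WT#20D-17 and at most 2.43 CPM elsewhere. Of 8 noncoding genes of the clusters tested, 0 were called in the pooled comparison. Hotairm1, a noncoding RNA at the 3′ end of HoxA and 1 of 3 tested over the days, rose over the days in the 4 lines (log2 fold 1.79, SE 0.38, FDR = 0.0060).

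Of the cofactors that bind DNA with Hox proteins, 2 of 9 were called lower in Nox4-/- than in WT#1-4 (3.97% of all genes) and 0 higher (1.65%). They were Pknox2 (log2 fold -1.72, SE 0.41, FDR = 0.0014) and Meis2 (-0.76, SE 0.19, FDR = 0.0070). Of 27 Polycomb genes, which hold Hox clusters silent, 2 were called lower, against 3.97% of all genes, and 0 higher. They were Cbx7, at 26.4 to 127 CPM in WT#1-4 and at most 0.674 CPM in the Nox4-/- libraries, and Jarid2 (-0.74, SE 0.16). Over the days 4 Polycomb genes rose, Ezh1 among them (log2 fold 2.24, SE 0.30, FDR = 0.00020), and 6 fell, among them Rbbp4 (-0.94, SE 0.14, FDR = 0.00041) and Eed (-0.86, SE 0.13, FDR = 0.00053). Of 14 trithorax genes, which keep Hox genes active, 0 were called in the pooled comparison, and 3 fell over the days. Over the days 18.0% of all genes were called, so 3 of 14 is near that share, and 10 of 27 Polycomb genes were called. Fibroblast markers mark the cells that the lines were made from and grown on. Of these 15 markers, 8 were called lower in Nox4-/- than in WT#1-4 (3.97% of all genes) and 0 higher, with a median log2 fold of -1.997. Their sum was 159 to 233 CPM in WT#1-4, 56.3 to 376.5 CPM in Nox4-/- #5-8 and 50.6 to 108 CPM in Nox4-/- #5-23, with none to 5 of the 15 at or under 3 counts in a library. Prrx1, a limb and facial mesenchyme factor, was at 16.0 to 29.9 CPM in WT#1-4 and at most 3.46 CPM in the Nox4-/- libraries. Their part in the HoxA, HoxB and HoxD levels was not tested.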

How the data were processed

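The labels describe stranded libraries, 1 per line and day. The authors trimmed reads, aligned them with STAR 2.6.0c and deposited RSEM 1.3.1 expected counts per gene on mm10 (GRCm38); the strand setting of RSEM is not given in the sources used here. Of the deposited expected counts, 9.92% had decimals, and all were rounded to whole numbers. Totals were 20294968 to 27708023 per library. Symbols and coordinates came from GENCODE M21. The 29 members and the lists were chosen with earlier results of these data known. CPM used TMM scaling (edgeR 4.0.16, R 4.3.3). Wilson 95% intervals and the floor of 3 counts cover counting error only. Day was tested with edgeR's quasi-likelihood test with line as a term, genotype and lines with edgeR's exact test over the 5 days of each line, and genotype also with counts summed per line, at a Benjamini-Hochberg FDR under 0.01 over all genes tested. P-values measure the spread between these libraries, and the days of 1 clone are not independent cultures of a genotype. All members are named, with values per library for those called in the day course, interaction or pooled comparison and the 2 of each cluster with the highest mean CPM per kb, and of other lists at most the 3 genes with the smallest p and those with high levels that mark cells; other genes given by library were chosen after their values were seen. Alternatives were other scalings, filters, tests, blocks, wild type lines, DESeq2 1.42.0 and leaving out each line or day. Libraries of the same day share the day in the labels, and their deviations correlated by -0.19 to 0.76 over pairs of lines. The fits were tested on simulated data.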

Additional observations from a re-analysis of the deposited data

Results flagged for a closer look

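In 9 of 68 sets of 5 libraries of 1 line, a single day stood apart from the other days by Dixon's criterion. In replicates, chance meets this criterion in about 1 in 20 sets. The days of a line are a course and not replicates, so 9 of 68 cannot be read against that rate. In Nox4-/- #5-8 the days that stood apart were Hoxa3 on day 14 (2.88 CPM), Hoxa4 on day 14 (2.88 CPM), Hoxa6 on day 0 (1.04 CPM), Hoxa9 on day 0 (17.9 CPM) and Hoxb4 on day 14 (6.86 CPM). In Nox4-/- #5-23 they were Hoxa3 on day 14 (9.84 CPM) and Hoxa9 on day 0 (40.4 CPM). In the wild type lines they were Hoxa5 on day 0 in WT#1-4 (10.8 CPM) and Hoxa11 on day 7 in WT#20D-17 (1.47 CPM). In each case that day was the highest of its line.

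The Nox4-/- lines, set against the same WT#1-4 libraries, differed from each other in edgeR's exact test for 7 genes, all higher in Nox4-/- #5-23 than in Nox4-/- #5-8. The log2 differences were 6.68 for Hoxd4, 4.76 for Hoxd8, 3.86 for Hoxd9, 1.87 for Hoxa3, 1.29 for Hoxa7, 1.09 for Hoxa10 and 1.08 for Hoxa9.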

How the results depend on the processing

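Members called in a main fit gave 273 values under another setting. Of these, 217 kept their call, 56 kept their direction but lost the call, and 0 changed sign. Members not called in the main fit were outside this tally. Among them, Hoxd4, Hoxd8 and Hoxd9 had positive folds in the pooled comparison and negative folds, each called, when Nox4-/- #5-23 was left out. Without line as a replicate block 0 members were called in the day course and 0 on day 14 against day 0; leaving out 1 line gave 0 to 1 in each, and 0 to 1 in the interaction. In the pooled comparison, with 5 members called, 3 were called with a filter on low counts, 3 in the quasi-likelihood test, 4 with day as a replicate block, 18 with WT#20D-17 as the wild type, 10 with both wild type lines and 4 to 8 when a line or day was left out. Between wild type lines the replicate block gave 7 and leaving out a day 7 to 12, against 11. Between Nox4-/- lines these were 10 and 3 to 9, against 7. With the line as the unit DESeq2 called 1. Over all genes, counts were 3203 in the day course against 5093 in DESeq2, 644 without the block and 624 to 3978 without a line, 5141 on day 14 against 1756 without the block and 2567 without Nox4-/- #5-23, 2 in the interaction against 11 without a filter, 191 in DESeq2, 0 without the block and 666 without WT#1-4, 1903 pooled against 1228 by quasi-likelihood, 8751 with WT#20D-17 and 4101 with both wild type lines, 740 between Nox4-/- lines against 1171 in DESeq2 and 2135 with the block, and 0 with the line as the unit against 730 in DESeq2. The cause of these changes was not tested. With 3 counts as the floor, levels at or under 3 counts could not be told from 0.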
